A study of Mus musculus with 4 samples.

Results

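The genes described here are 10 cell-surface genes of adipocyte progenitors, chosen by gene name from 15906 genes in the deposited tables: Tnfrsf9, Pdgfra, Pdgfrb, Cd34, Ly6a, Cd24a, Dpp4, Cd9, Thy1 and Eng. Tnfrsf9 encodes CD137 and Pdgfra encodes PDGFRα, the antigens on which the cells were sorted. Tables for the PDGFRα+ cells and for the comparison between cell types listed all 10, and the table for CD137+ cells listed 9, without Tnfrsf9. A gene missing from a table is called not listed, which is not the same as a level of 0.

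Adipocyte progenitors are fibroblast-like cells of the fat stroma that are usually isolated by antibodies to such surface proteins. PDGF receptors are tyrosine kinases that bind platelet-derived growth factors and mark stromal (PDGFRα) and mural or stromal (PDGFRβ) cells. CD34 and Sca-1 (the product of Ly6a) mark the stromal progenitor pool, CD24 and CD9 have been used in mice to divide that pool into fractions, and DPP4 marks an early interstitial progenitor. CD137, a tumour necrosis factor receptor family member best known as a costimulator on T cells, has been used as a marker of beige adipocyte precursors.

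The libraries were made from cultured cells of C57BL/6 mice, isolated with magnetic beads from subcutaneous or visceral fat (SAT or VAT in the labels) and given adipogenic medium. Dexamethasone (DEX), a synthetic glucocorticoid, was given at 1 µM, and PBS was the control. The 4 groups were PDGFRα+ cells (also named CD140+) with DEX, PDGFRα+ cells with PBS, CD137+ cells with DEX and CD137+ cells with PBS, with 1 sample each. All groups had been cultured and differentiated between the sort and the treatment, so the values are not those of freshly sorted cells, and neither the animals nor the depot of each sample is given. With 1 sample per group there is no replicate error, and no p-value was computed.

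The deposited values are FPKM, which divide the fragments of a gene by its length and by the depth of the library, in 3 tables of 2 columns. The PDGFRα+ table and the CD137+ table each hold DEX and PBS, and the between-type table holds PDGFRα+ DEX and CD137+ DEX. Since 2 columns under 1 label did not hold the same values from table to table, the 6 columns were treated as 6 libraries. The sheet titles also number them: 1 for both columns of the CD137+ table and 2 for both of the between-type table. In the PDGFRα+ table the DEX column is numbered 1 and the PBS column 2. What the numbers stand for is not given. Where the 2 libraries compared differ in number, a difference by treatment or cell type cannot be told apart from one by number. This holds within the PDGFRα+ table. Across tables it also holds for the CD137+ DEX library numbered 2 against CD137+ PBS, and for PDGFRα+ PBS against CD137+ PBS. Below, the "own-table" DEX library shares its table with PBS, and the "between-type" DEX library comes from the third table. The libraries held 11971 to 12465 genes at 1 FPKM or more and summed to 430997 to 449283 FPKM, while their read depth is unknown. The own-table PDGFRα+ DEX and the between-type CD137+ DEX libraries stood apart from the other 4 in several of the surface genes, so the comparisons of DEX with PBS are given with either DEX library. Of 15 glucocorticoid-induced genes, the own-table PDGFRα+ DEX library held 0 higher and 9 lower than PBS by 2-fold, and the own-table CD137+ DEX library held 1 higher and 0 lower. Of all genes tested, 15.5% were higher and 7.71% lower in the PDGFRα+ table, and 0.471% and 0.569% in the CD137+ table. With the median difference set to 0, the 15 genes had 0 higher and 11 lower in PDGFRα+ cells, and 1 higher and 1 lower in CD137+ cells. Of all genes tested, 1163 of 13181 were then higher and 1638 lower in PDGFRα+ cells, and 48 of 12304 higher and 81 lower in CD137+ cells. Tsc22d3, a direct target of the glucocorticoid receptor, stood at 30.2 FPKM in the PDGFRα+ library labelled DEX and 113 FPKM with PBS, against the direction of the label. In CD137+ cells it stood at 38.5 FPKM in the own-table library labelled DEX and 76.1 FPKM with PBS. Fkbp5, a receptor co-chaperone also induced by glucocorticoids, stood at 35.8 FPKM with DEX and 64.7 FPKM with PBS in the PDGFRα+ table. It stood at 66.2 FPKM with DEX and 68.1 FPKM with PBS in the CD137+ table. With the between-type DEX libraries set across tables, 0 of the 15 genes were apart from PBS in PDGFRα+ cells, where they summed to 7569 FPKM with DEX and 7535 FPKM with PBS. In CD137+ cells 1 was then higher and 7 were lower, with sums of 2251 FPKM with DEX and 3196 FPKM with PBS. The higher gene was Sgk1, at 189 FPKM with DEX and 67.8 FPKM with PBS. The own-table CD137+ DEX library summed to 3547 FPKM, above PBS. Mt2 weighs heavily in such sums, at 1508 FPKM in the between-type CD137+ DEX library and 4134 FPKM in the between-type PDGFRα+ one. Of all genes, 0.169% were apart in that PDGFRα+ comparison, and 4.66% were higher and 7.51% lower in that CD137+ comparison. Every DEX library below is therefore a library labelled DEX, and directions are those of the labels.

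Promoter sequences are shown for 4 genes that stood at least 2-fold apart in the PDGFRα+ table, because they are the genes with a matched promoter on which that comparison turns. Pdgfra, Cd34 and Dpp4 were lower in the library labelled DEX and Cd9 was higher. Each runs 5′ to 3′ from 250 bases before to 50 bases after the RefSeq transcription start (GRCm38.p6). Capitals mark matches to GGAATG or CATTCC, the letters bound by TEAD factors, whose member TEAD1 the study's title names, and to AGAACA or TGTTCT, a hexamer bound by the glucocorticoid receptor. The windows are chr5:75152001-75152300 on the plus strand for Pdgfra, chr1:194938571-194938870 on the plus strand for Cd34, chr2:62412182-62412481 on the minus strand for Dpp4 and chr6:125494711-125495010 on the minus strand for Cd9.
Pdgfra: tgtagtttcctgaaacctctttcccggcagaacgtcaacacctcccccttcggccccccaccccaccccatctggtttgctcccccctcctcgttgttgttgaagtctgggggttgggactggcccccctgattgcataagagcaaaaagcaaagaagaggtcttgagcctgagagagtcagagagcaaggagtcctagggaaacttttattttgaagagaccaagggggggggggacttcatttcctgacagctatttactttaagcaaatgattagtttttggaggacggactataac
Cd34: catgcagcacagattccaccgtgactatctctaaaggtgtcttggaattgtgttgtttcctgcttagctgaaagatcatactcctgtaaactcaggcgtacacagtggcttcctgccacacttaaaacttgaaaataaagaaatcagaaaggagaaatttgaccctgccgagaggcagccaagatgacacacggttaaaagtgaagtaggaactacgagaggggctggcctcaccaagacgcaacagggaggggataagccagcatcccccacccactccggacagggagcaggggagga
Dpp4: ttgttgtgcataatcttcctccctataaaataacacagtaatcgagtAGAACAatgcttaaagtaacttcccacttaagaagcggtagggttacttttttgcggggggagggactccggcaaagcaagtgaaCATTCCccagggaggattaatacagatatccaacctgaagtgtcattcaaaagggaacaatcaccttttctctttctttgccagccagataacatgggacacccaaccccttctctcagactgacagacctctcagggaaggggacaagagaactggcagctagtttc
Cd9: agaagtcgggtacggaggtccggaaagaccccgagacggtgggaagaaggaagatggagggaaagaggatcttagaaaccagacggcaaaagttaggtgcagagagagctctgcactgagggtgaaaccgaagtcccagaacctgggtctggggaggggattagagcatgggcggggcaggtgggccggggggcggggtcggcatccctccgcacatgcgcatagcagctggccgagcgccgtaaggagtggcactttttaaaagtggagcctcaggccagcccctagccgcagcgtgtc
In these windows Dpp4 held CATTCC at position -118 and AGAACA at position -203 from the start, and the other 3 windows held neither motif on either strand. Of 32851 mouse promoters of this length, 14.7% held the TEAD letters and 19% the receptor hexamer, so a match in 1 of 4 windows is a description and not a binding site. Cd9 had 18 CG dinucleotides, against 5 in Pdgfra, 7 in Cd34 and 4 in Dpp4, and the median over all promoters was 7 (quartiles 3 and 20). Cd9 also held GGGCGG, the letters bound by Sp1, in 2 places, while Pdgfra, Cd34 and Dpp4 held it on neither strand, and 35.7% of all promoters did. RefSeq promoters were matched for 6 of the 10 genes.

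Tnfrsf9 (ENSMUSG00000028965), the gene of CD137, lies at chr4:150914562-150946102 on the plus strand (GRCm38, GENCODE M21, as for all genes below). In PDGFRα+ cells it stood at 1.62 FPKM in the own-table DEX library and 4.81 FPKM in the between-type DEX library, against 4.14 FPKM with PBS. In CD137+ cells it stood at 0.161 FPKM in the between-type DEX library and was not listed in the other 2 libraries. The mRNA of the CD137 antigen was thus higher in each PDGFRα+ library than in the CD137+ library that listed it, opposite to the sort by which the cells are named. These levels are low: 40.6% of the genes listed beside it stood below Tnfrsf9 in PDGFRα+ PBS and 2.9% in the CD137+ DEX library. The deposited locus of Tnfrsf9 spans 947315 bases, against 31541 bases for the annotated gene, and covers its opposite-strand neighbour Camta1, with which Tnfrsf9 shares no exon bases. Deposited loci were also wider than the annotated gene for Cd34 (153431 against 22461 bases) and Dpp4 (140841 against 82159 bases). The same held for Eng (57551 against 36075 bases) and Cd9 (48870 against 34526 bases). Whether the counting used strand is not given in the sources used here.

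Pdgfra (ENSMUSG00000029231, chr5:75152292-75198215, plus strand) was abundant under both labels. In PDGFRα+ cells it stood at 57.9 FPKM in the own-table DEX library and 145.9 FPKM in the between-type DEX library, against 136.7 FPKM with PBS. CD137+ cells held 154 FPKM in the own-table DEX library and 67.7 FPKM in the between-type DEX library, against 164 FPKM with PBS. The values form a high set of 4 libraries, both PBS libraries among them, and a low pair made of 1 DEX library of each cell type. Its median over the 6 libraries was 141 FPKM, and the highest library exceeded the lowest 2.84-fold. In bulk RNA, fewer cells that carry a transcript and less of it per cell cannot be told apart. Exons of the antisense gene Gm42802 overlap 4.55% of its exon bases, and Gm42802 stood at 0.413 FPKM with DEX and 0.786 FPKM with PBS in the PDGFRα+ table.

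Pdgfrb (ENSMUSG00000024620, chr18:61045150-61085061, plus strand), the second PDGF receptor, varied less. It stood at 71.9 FPKM in the own-table PDGFRα+ DEX library and 57.1 FPKM in the between-type PDGFRα+ DEX library, against 49.3 FPKM with PBS. CD137+ cells held 85.1 FPKM in the own-table DEX library and 94.4 FPKM in the between-type DEX library, against 94.5 FPKM with PBS. All 3 CD137+ libraries lay above all 3 PDGFRα+ libraries, across tables that were made separately. The ratio of Pdgfra to Pdgfrb within a library, which needs no scaling between tables, was 0.806 in the own-table PDGFRα+ DEX library and 2.55 in the between-type PDGFRα+ DEX library, against 2.77 with PBS. For CD137+ cells the ratio was 1.81 in the own-table DEX library and 0.717 in the between-type DEX library, against 1.74 with PBS. Pdgfrb mRNA thus exceeded Pdgfra mRNA in 1 DEX library of each cell type and in neither PBS library.

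Cd34 (ENSMUSG00000016494, chr1:194938819-194961279, plus strand), which encodes a sialomucin of progenitors and vascular cells, split into the same sets of libraries as Pdgfra. PDGFRα+ cells held 5.56 FPKM in the own-table DEX library and 37.1 FPKM in the between-type DEX library, against 29.97 FPKM with PBS. CD137+ cells held 34.7 FPKM in the own-table DEX library and 6.20 FPKM in the between-type DEX library, against 37.4 FPKM with PBS. The 4 higher libraries lay between 29.97 and 37.4 FPKM, and the lower pair at 5.56 and 6.20 FPKM. The 6.73-fold range of Cd34 was wider than the 2.84-fold range of Pdgfra.

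Ly6a (ENSMUSG00000075602, chr15:74994877-74998031, minus strand), the gene of the GPI-anchored protein Sca-1, had the highest median of the 10 genes, 316 FPKM. In PDGFRα+ cells it stood at 167.5 FPKM in the own-table DEX library and 308 FPKM in the between-type DEX library, against 263 FPKM with PBS. In CD137+ cells it stood at 1305 FPKM in the own-table DEX library and 324 FPKM in the between-type DEX library, against 984 FPKM with PBS. The CD137+ table thus held Ly6a at ranks 34 and 42 from the top of its listed genes with DEX and PBS, while the other 4 libraries ranked it 199 to 374. Ly6 genes are a cluster of similar copies, so how reads were divided among them is uncertain.

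Thy1 (ENSMUSG00000032011, chr9:44043384-44048579, plus strand), which encodes the GPI-anchored protein CD90 of fibroblasts and lymphocytes, stayed within a 2.09-fold range. PDGFRα+ cells held 28.1 FPKM in the own-table DEX library and 41.7 FPKM in the between-type DEX library, against 39.2 FPKM with PBS. CD137+ cells held 39.2 FPKM in the own-table DEX library and 58.8 FPKM in the between-type DEX library, against 46.4 FPKM with PBS. The own-table PDGFRα+ DEX library was lowest and the between-type CD137+ DEX library highest, so the pair that was alike in Pdgfra and Cd34 stood at opposite ends here.

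Dpp4 (ENSMUSG00000035000, chr2:62330073-62412231, minus strand), a dipeptidyl peptidase, was scarce. It stood at 0.561 FPKM in the own-table PDGFRα+ DEX library and 2.37 FPKM in the between-type PDGFRα+ DEX library, against 3.44 FPKM with PBS. CD137+ cells held 0.517 FPKM in the own-table DEX library and 0.544 FPKM in the between-type DEX library, against 0.4998 FPKM with PBS. Only 2 of the 6 libraries, both PDGFRα+, passed 1 FPKM. All 3 CD137+ libraries were below that level, as was the own-table PDGFRα+ DEX library. In PDGFRα+ PBS, 36.7% of listed genes stood below Dpp4.

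Cd24a (ENSMUSG00000047139, chr10:43578284-43584265, plus strand), which encodes a GPI-anchored sialoglycoprotein, ran opposite to Cd34 and Pdgfra. PDGFRα+ cells held 198 FPKM in the own-table DEX library and 36.1 FPKM in the between-type DEX library, against 29.3 FPKM with PBS. CD137+ cells held 15.1 FPKM in the own-table DEX library and 66.1 FPKM in the between-type DEX library, against 14.2 FPKM with PBS. The 13.9-fold range of Cd24a was the widest among the 9 genes listed in all libraries. The ratio of Cd24a to Pdgfra was 3.42 in the own-table PDGFRα+ DEX library and 0.248 in the between-type one, against 0.214 with PBS. In CD137+ cells that ratio was 0.0979 in the own-table DEX library and 0.976 in the between-type one, against 0.0865 with PBS.

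Cd9 (ENSMUSG00000030342, chr6:125460266-125494791, minus strand), a tetraspanin that organises other membrane proteins, was likewise high in the pair with low Pdgfra. It stood at 122 FPKM in the own-table PDGFRα+ DEX library and 56.7 FPKM in the between-type one, against 59.8 FPKM with PBS. CD137+ cells held 56.7 FPKM in the own-table DEX library and 100.7 FPKM in the between-type one, against 45.9 FPKM with PBS. Its opposite-strand neighbour Gm26728 overlaps 10.7% of its exon bases and was not listed in any of the 6 libraries.

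Eng (ENSMUSG00000026814, chr2:32646595-32682669, plus strand) encodes endoglin, an accessory receptor of TGF-β and BMP ligands. It stood at 24.7 FPKM in the own-table PDGFRα+ DEX library and 15.2 FPKM in the between-type one, against 16.1 FPKM with PBS. In CD137+ cells it stood at 13.76 FPKM in both the own-table DEX library and PBS, and at 21.9 FPKM in the between-type DEX library. Its highest library exceeded its lowest 1.79-fold, the narrowest range of the 10 genes, and its 2 highest libraries were the pair with low Pdgfra.

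**Figure D1:**
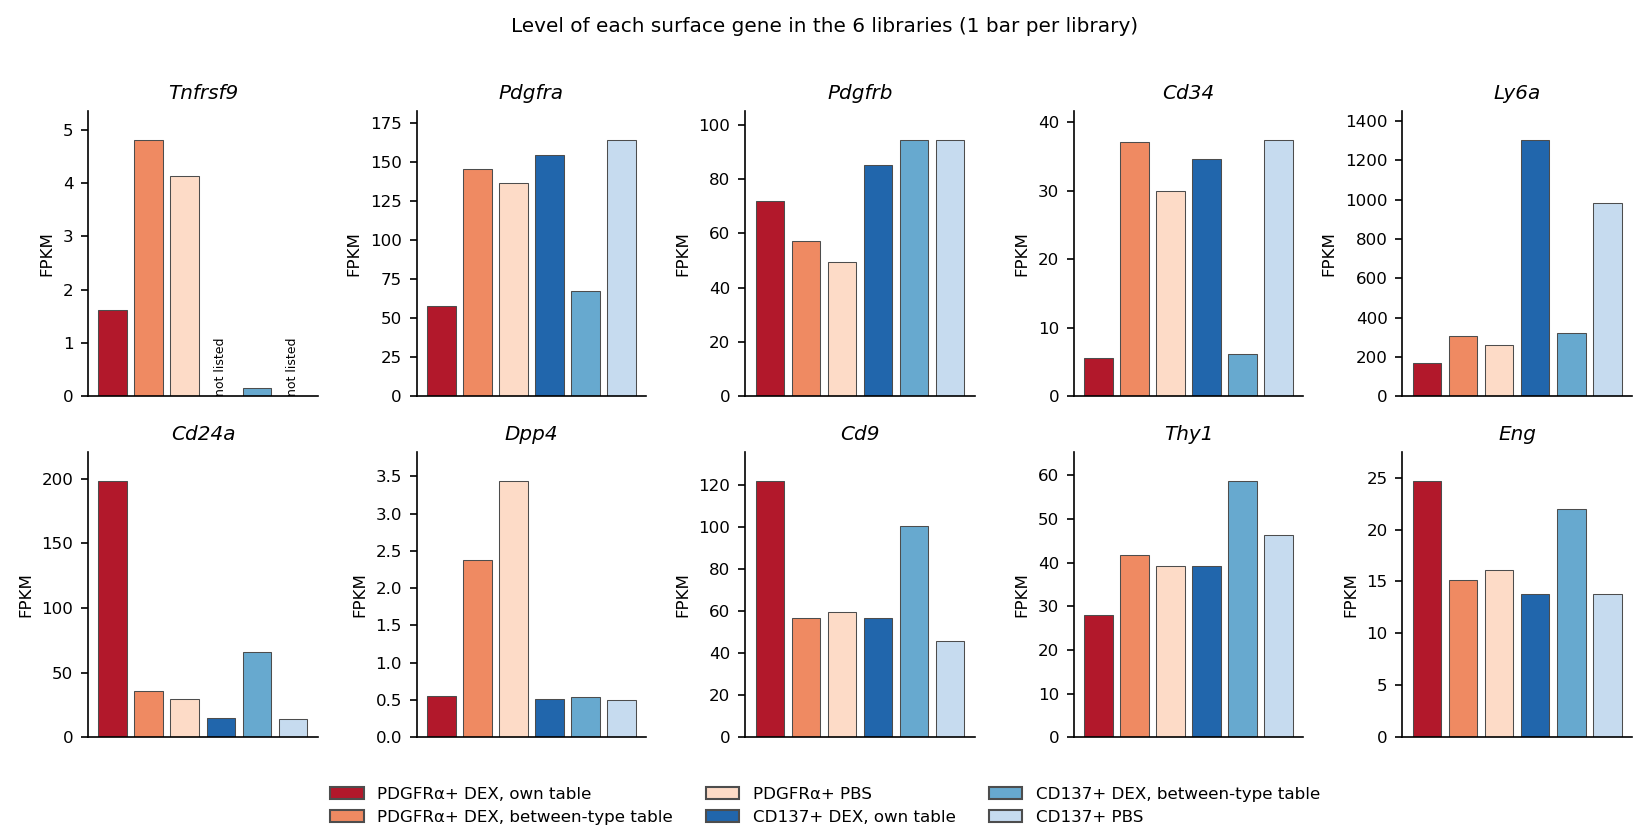
FPKM of each of the 10 genes (linear axes from 0), 1 bar per library: the 2 PDGFRα+ DEX libraries and PDGFRα+ PBS in reds, then the 2 CD137+ DEX libraries and CD137+ PBS in blues. Pdgfra and Cd34 are low, and Cd24a, Cd9 and Eng high, in the own-table PDGFRα+ DEX and between-type CD137+ DEX libraries, while Ly6a is highest in the CD137+ table, at 1305 FPKM with DEX and 984 FPKM with PBS.

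**Figure D2:**
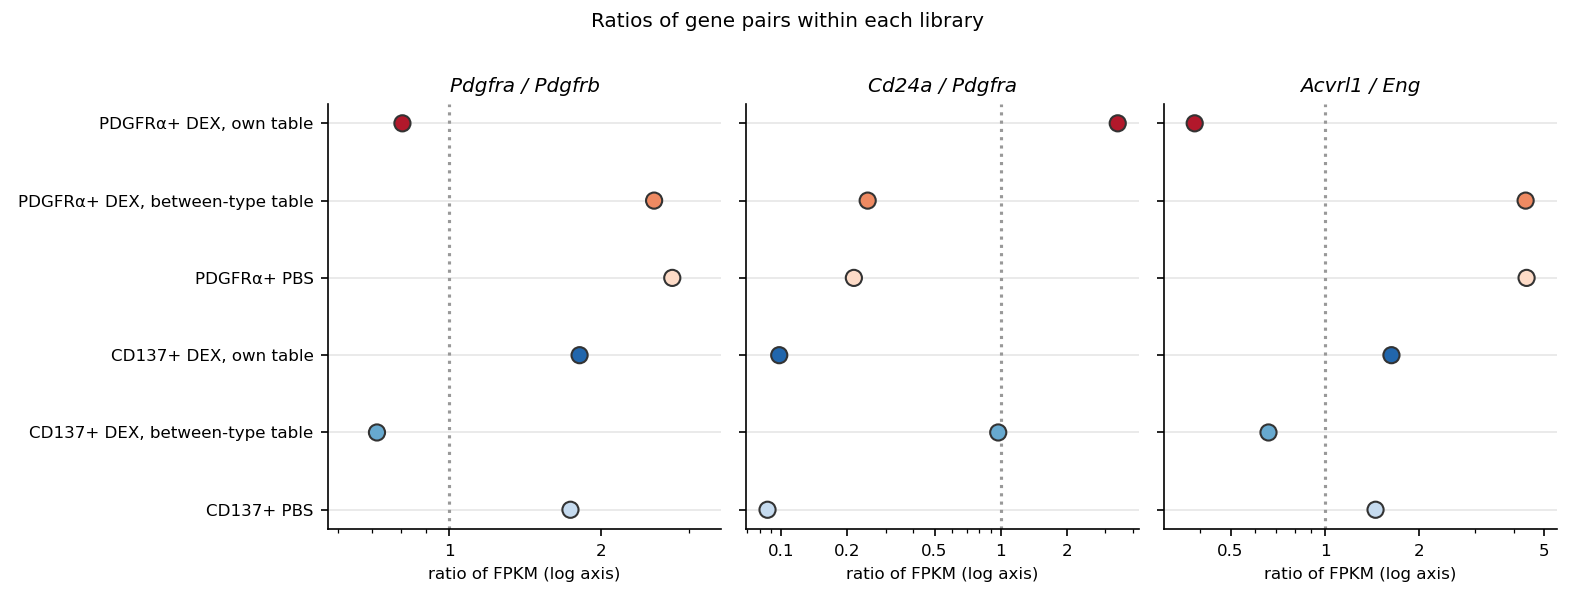
Ratios of FPKM within each library (log axes, dotted line at 1) for Pdgfra over Pdgfrb, Cd24a over Pdgfra and Acvrl1 over Eng, 1 point per library. The own-table PDGFRα+ DEX and between-type CD137+ DEX libraries have Pdgfra over Pdgfrb at 0.806 and 0.717, while the other 4 lie between 1.74 and 2.77.

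In PDGFRα+ cells, Cd24a and Cd9 were at least 2-fold higher and Pdgfra, Cd34 and Dpp4 at least 2-fold lower in the own-table DEX library than with PBS. Differences are on the log2(FPKM + 1) scale, where low genes look less different than they are. A gene counts as apart if its difference reaches 2-fold and its higher library reaches 1 FPKM. The differences were 2.72 for Cd24a and 1.02 for Cd9, and -1.22 for Pdgfra, -2.24 for Cd34 and -1.51 for Dpp4. Tnfrsf9 lay just inside 2-fold at -0.97, and Ly6a stood at -0.65, Thy1 at -0.47, Pdgfrb at 0.54 and Eng at 0.59. Of all 13181 genes at the same minimum, 15.5% were higher and 7.71% lower by 2-fold, 23.3% in either direction, beside 5 of the 10 surface genes. The median surface gene stood at -0.56 and the median of all genes tested at 0.25.

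Among genes that both libraries held at 1 FPKM, the median gene was 0.28 log2 units higher in the own-table PDGFRα+ DEX library. With that shift set to 0, 1163 genes were higher and 1638 lower, against 2049 higher and 1016 lower as deposited. Cd9 then stood at 0.74, within 2-fold, and Tnfrsf9 at -1.24, beyond it, and each of the 10 genes kept the sign of its difference. The count became 1 gene higher (Cd24a) and 4 lower (Tnfrsf9, Pdgfra, Cd34 and Dpp4).

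The between-type PDGFRα+ DEX library gave another picture against the same PBS library. Set across tables with the median difference at 0, all 10 genes were within 2-fold, between -0.43 for Dpp4 and 0.26 for Cd34, beside 0.0562% of 12456 genes higher and 0.112% lower, 0.169% in either direction. Set against each other, the own-table and the between-type library of PDGFRα+ DEX stood apart at 6 of the 10 genes, beside 8.04% of all genes higher and 12.2% lower, 20.3% in either direction. Cd24a was higher in the own-table library (2.18), and Tnfrsf9 (-1.39), Pdgfra (-1.56), Cd34 (-2.78), Ly6a (-1.12) and Dpp4 (-1.36) were lower. Without the median set to 0, Ly6a was within 2-fold (-0.87) and Cd9 was higher (1.09). These comparisons share libraries and are not independent of each other.

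In CD137+ cells, 0 of the 8 surface genes at the minimum were 2-fold apart between the own-table DEX library and PBS, beside 0.471% of 12304 genes higher and 0.569% lower, 1.04% in either direction. The differences ran from -0.24 for Thy1 to 0.41 for Ly6a, with a median of -0.05. Pdgfra stood at -0.09, Pdgfrb at -0.15, Cd34 at -0.11, Cd24a at 0.08 and Cd9 at 0.30, and Eng was level to 2 decimals. Dpp4 was below 1 FPKM in both libraries, and Tnfrsf9 was not listed.

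The between-type CD137+ DEX library, set across tables against CD137+ PBS, was apart at 4 of 8 genes, beside 4.66% of 12427 genes higher and 7.51% lower, 12.2% in either direction. Pdgfra (-1.41), Cd34 (-2.56) and Ly6a (-1.75) were lower and Cd24a (1.99) was higher, with Cd9 just inside 2-fold at 0.97 and beyond it at 1.12 without the median set to 0. The same 4 genes were apart between the between-type and the own-table library of CD137+ DEX, by -1.28 for Pdgfra, -2.42 for Cd34, -2.11 for Ly6a and 1.95 for Cd24a, beside 3.10% of all genes higher and 6.30% lower, 9.40% in either direction. Which library a DEX label refers to therefore decided whether Pdgfra, Cd34 and Cd24a differed from PBS, in both cell types. Where these genes were apart from PBS, the DEX and PBS libraries also differed in number in the sheet titles. Where they were within 2-fold, the numbers were the same. Treatment and number cannot be told apart here.

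**Figure D3:**
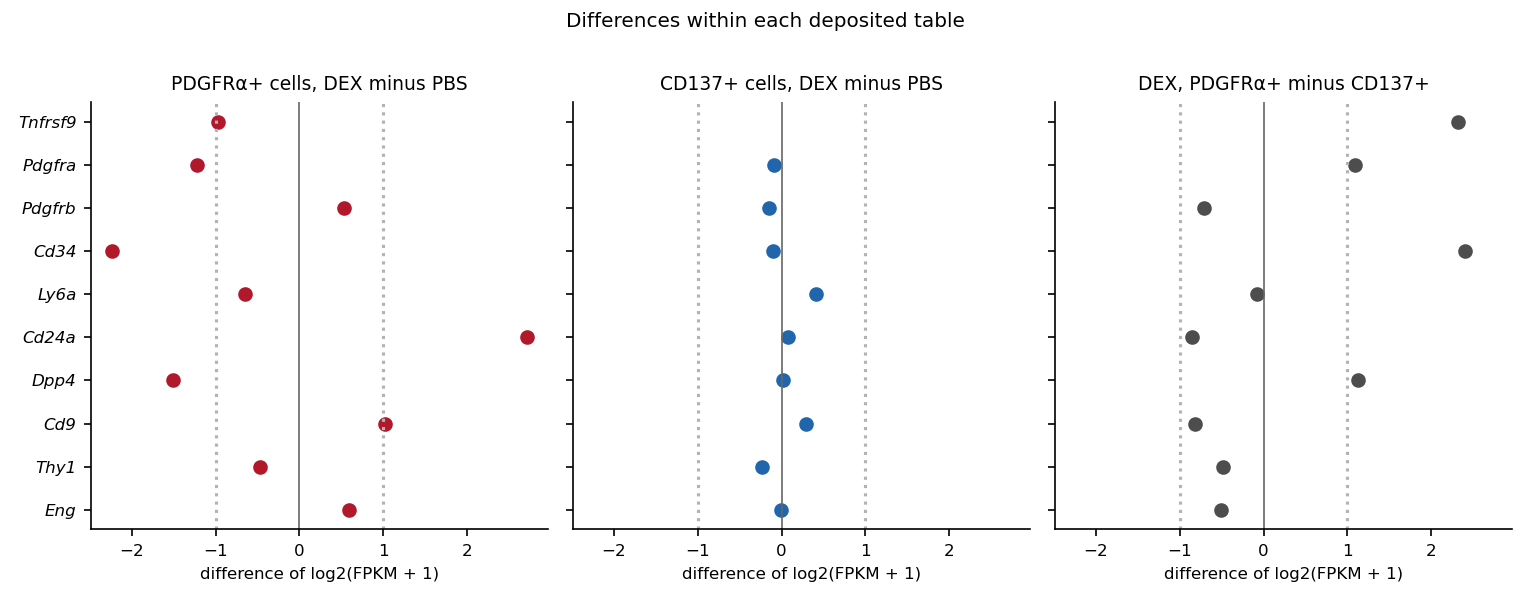
Difference of log2(FPKM + 1) for each gene within the 3 deposited tables, 1 point per gene, with dotted lines at 2-fold. In the PDGFRα+ table Cd24a lies at 2.72 and Cd34 at -2.24, while all points of the CD137+ table lie between -0.24 and 0.41.

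**Figure D4:**
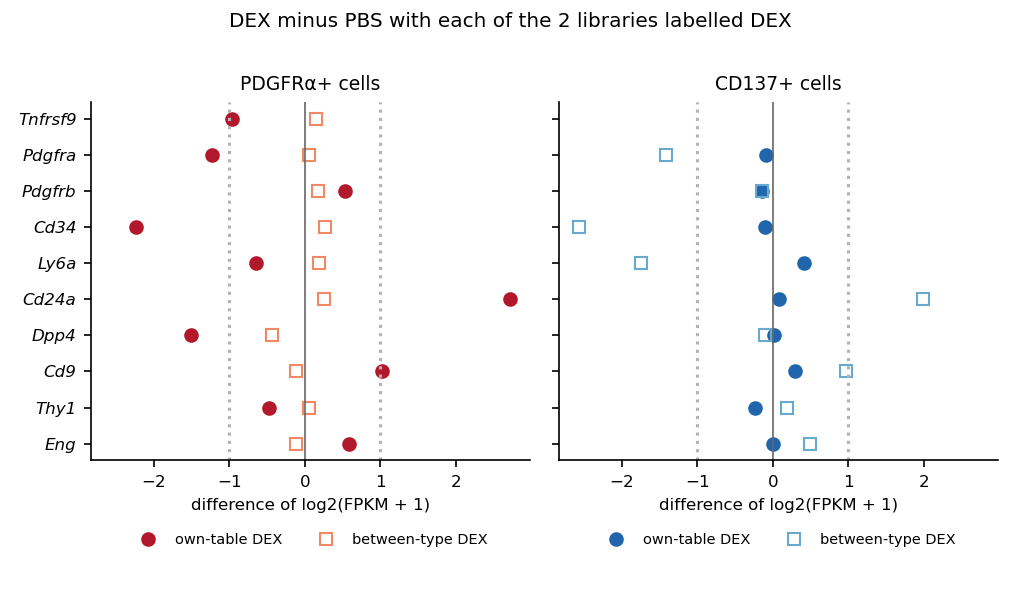
Difference of log2(FPKM + 1) from PBS for the own-table DEX library (filled circles) and the between-type DEX library (open squares, median difference set to 0), by cell type, with dotted lines at 2-fold. Cd34 lies at -2.24 and 0.26 in PDGFRα+ cells, and at -0.11 and -2.56 in CD137+ cells.

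When the cell types were compared under DEX in the between-type table, Tnfrsf9, Pdgfra, Cd34 and Dpp4 were at least 2-fold higher in the PDGFRα+ DEX library than in the CD137+ DEX library, and none of the 10 genes was 2-fold lower. The differences were 2.32 for Tnfrsf9, 1.10 for Pdgfra, 2.40 for Cd34 and 1.13 for Dpp4. Cd24a stood at -0.85, Cd9 at -0.82, Pdgfrb at -0.71, Eng at -0.50, Thy1 at -0.48 and Ly6a at -0.07. Of 12912 genes, 9.25% were higher and 11.5% lower, 20.7% in either direction. The typical gene was -0.24 log2 units off, and relative to that shift the same 4 genes were higher, 0 were lower and Ly6a stood at 0.17, while 1690 genes were higher and 900 lower, against 1195 and 1481 as deposited.

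PBS libraries of the cell types come from separate tables and were set side by side with the median difference at 0. They are numbered 2 for PDGFRα+ and 1 for CD137+ cells, so cell type and number cannot be told apart. Cd24a (1.15) and Dpp4 (1.72) were higher and Ly6a (-1.74) lower in PDGFRα+ PBS than in CD137+ PBS, beside 8.86% of 12481 genes higher and 5.14% lower, 14.0% in either direction. Without the median set to 0, Cd24a was within 2-fold at 0.99. Pdgfra stood at -0.11 and Cd34 at -0.15, so neither the antigen of the PDGFRα+ sort nor the general progenitor marker told the PBS libraries apart by 2-fold. Pdgfrb stood at -0.77, Cd9 at 0.53, Eng at 0.37 and Thy1 at -0.08. The own-table PDGFRα+ DEX and between-type CD137+ DEX libraries, alike in Pdgfra (-0.20) and Cd34 (-0.11), were apart at Tnfrsf9 (1.20), Cd24a (1.59) and Thy1 (-1.02), beside 5.45% of 12648 genes higher and 1.45% lower, 6.90% in either direction. The between-type PDGFRα+ DEX library against the own-table CD137+ DEX library was apart at Ly6a (-1.91), Cd24a (1.37) and Dpp4 (1.32), beside 8.40% of 12531 genes higher and 5.16% lower, 13.6% in either direction. With both own-table DEX libraries, Cd24a (3.54) and Cd9 (1.01) were higher and Pdgfra (-1.48), Cd34 (-2.53) and Ly6a (-3.04) lower in PDGFRα+ cells, beside 6.58% of 12503 genes higher and 7.50% lower, 14.1% in either direction.

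In the authors' deposited table for CD137+ cells, Ly6a was the 1 of 9 surface genes with q under 0.05 (q = 0.000174), beside 3.72% of 14208 genes. The authors' deposited table for PDGFRα+ cells gives q = 2.75e-06 for Cd34, 0.000317 for Cd24a and 0.0110 for Dpp4, 3 of 10 beside 15% of 15009. In the authors' deposited table between cell types, Tnfrsf9 (q = 4.32e-07) and Cd34 (q = 7.66e-07) passed, 2 of 10 beside 13.2% of 14679. These q-values in the authors' deposited tables rest on 1 library per group, and Pdgfra passed in none of them.

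Counts of the lists below stand beside the shares of all tested genes at least 2-fold higher and lower. These were 15.5% and 7.71% in the PDGFRα+ table, 0.471% and 0.569% in the CD137+ table, and 9.25% and 11.5% between cell types. Among ligands of the PDGF receptors, Pdgfa and Pdgfb stood apart in the PDGFRα+ table. Of 9 listed ligands and related genes, 4 were higher and 0 lower in the own-table DEX library: Pdgfb, which binds both receptors, stood at 26.7 FPKM with DEX and 2.39 FPKM with PBS. Pdgfa, a ligand of PDGFRα, stood at 14.9 FPKM with DEX and 4.66 FPKM with PBS. The receptor tyrosine kinases Kit (9.83 FPKM with DEX and 1.47 FPKM with PBS) and Kdr (10.1 FPKM with DEX and 2.78 FPKM with PBS) were the other 2. Pdgfc (20.1 FPKM with DEX and 12.1 FPKM with PBS) and Pdgfd (14.0 FPKM with DEX and 17.1 FPKM with PBS) stayed within 2-fold. The between-type PDGFRα+ DEX library held Pdgfb at 1.68 FPKM, Pdgfa at 5.38 FPKM, Kit at 1.23 FPKM and Kdr at 2.46 FPKM. With it, 0 of the 9 genes were apart from PBS, beside 0.169% of all genes. In the CD137+ table Pdgfb was the 1 gene apart, at 0.442 FPKM with DEX and 2.48 FPKM with PBS. Between cell types, Pdgfa was lower in the PDGFRα+ DEX library (5.38 FPKM) than in the CD137+ DEX library (15.3 FPKM), and Pdgfrl, a receptor-like secreted protein gene, was higher (35.1 FPKM in PDGFRα+ and 12.6 FPKM in CD137+).

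Tnfsf9, the ligand of CD137, was listed in all 6 libraries at 2.66 to 6.18 FPKM and was within 2-fold in every table. Among 21 measured genes of that ligand, other tumour necrosis factor receptors and their adaptors, 7 were higher and 1 lower in the own-table PDGFRα+ DEX library. Of all genes tested, 15.5% were higher and 7.71% lower. Tnfrsf12a, the receptor of TWEAK, stood at 147 FPKM with DEX and 12.4 FPKM with PBS, and Tnfrsf22, a decoy receptor in mice, at 8.93 FPKM with DEX and 1.34 FPKM with PBS. Tnfrsf11b, which encodes osteoprotegerin, stood at 10.4 FPKM with DEX and 1.94 FPKM with PBS, and Tnfrsf23 at 49.9 FPKM with DEX and 17.2 FPKM with PBS. With the table's shift set to 0, 5 were higher and 2 lower, beside 1163 higher and 1638 lower of all 13181 genes. Between cell types, 2 were higher and 6 lower in the PDGFRα+ DEX library, including Tnfrsf12a (13.9 FPKM in PDGFRα+ and 90.5 FPKM in CD137+). Of 18 measured in the CD137+ table, 0 were higher and 1 lower, Tnfrsf18 at 0.533 FPKM with DEX and 2.11 FPKM with PBS.

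Receptors and ligands of the endoglin pathway split in the own-table PDGFRα+ DEX library, with 4 of 14 genes higher and 3 lower than with PBS. Of all genes tested, 15.5% were higher and 7.71% lower. With the shift set to 0, 2 of the 14 were higher and 3 lower, beside 1163 higher and 1638 lower of all 13181 genes. Acvrl1, which encodes the BMP9 receptor ALK1 that pairs with endoglin, stood at 9.49 FPKM with DEX and 70.6 FPKM with PBS. Acvr1b, an activin receptor, stood at 8.15 FPKM with DEX and 31.4 FPKM with PBS. Tgfb1, a TGF-β ligand, stood at 30.4 FPKM with DEX and 8.29 FPKM with PBS, and the type I receptor Tgfbr1 at 63.1 FPKM with DEX and 24.4 FPKM with PBS. Tgfbr2, the type II receptor, was within 2-fold (44.4 FPKM with DEX and 65.6 FPKM with PBS). The ratio of Acvrl1 to Eng was 0.384 in the own-table PDGFRα+ DEX library and 4.36 in the between-type one, against 4.39 with PBS. For CD137+ cells that ratio was 1.63 in the own-table DEX library and 0.661 in the between-type one, against 1.45 with PBS. Acvrl1 mRNA was below Eng mRNA only in the pair with low Pdgfra, among these 6 libraries. Between cell types, 3 of 13 genes were higher and 3 lower in the PDGFRα+ DEX library, and 0 of 12 were apart in the CD137+ table.

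Of 17 genes of other tetraspanins and their partners, 4 were higher and 0 lower in the own-table PDGFRα+ DEX library than with PBS. Of all genes tested, 15.5% were higher and 7.71% lower. With the shift set to 0, 2 of the 17 were higher, beside 1163 of all 13181 genes. Cd81, the nearest partner of CD9, stood at 262 FPKM with DEX and 298 FPKM with PBS, and Cd63, a tetraspanin of endosomes, at 941 FPKM with DEX and 791 FPKM with PBS. Cd53, a tetraspanin of leukocytes, stood at 11.7 FPKM with DEX and 0.831 FPKM with PBS. Tspan6 stood at 41.7 FPKM with DEX and 14.5 FPKM with PBS. Between cell types 0 were higher and 2 lower, Cd53 (0.504 FPKM in PDGFRα+ and 5.33 FPKM in CD137+) and Tspan6 (14.2 FPKM in PDGFRα+ and 29.3 FPKM in CD137+), and with the shift set to 0 the counts were 1 higher and 1 lower. Of 15 in the CD137+ table, 0 were apart.

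Ly6c1, a neighbour of Ly6a in the Ly6 cluster, stood at 10.8 FPKM with DEX and 33.0 FPKM with PBS in the PDGFRα+ table, and at 419 FPKM with DEX and 314 FPKM with PBS in the CD137+ table. Like Ly6a, it was high in the CD137+ table and lower in the between-type CD137+ DEX library (43.5 FPKM), where the PDGFRα+ DEX library held 37.5 FPKM. Of 4 measured Ly6 relatives, 2 were higher and 1 lower with DEX in the PDGFRα+ table, beside 15.5% and 7.71% of all genes. With the shift set to 0, 0 of these relatives were higher and 1 lower, beside 1163 higher and 1638 lower of all 13181 genes. Among 4 in the CD137+ table and 5 in the between-type table, 0 were apart. Of the 20 genes that build or attach the GPI anchor of Sca-1, CD24 and CD90, 0 were apart in the PDGFRα+ table, 0 of 19 in the CD137+ table and 1 between cell types, Gpaa1, a subunit of the enzyme that attaches it (11.3 FPKM in PDGFRα+ and 26.3 FPKM in CD137+), which was within 2-fold with the shift set to 0.

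Among 10 genes of peptidases related to DPP4 and of its partners, Fap, the closest relative of Dpp4, was the 1 gene lower in the own-table PDGFRα+ DEX library (2.53 FPKM with DEX and 7.87 FPKM with PBS). Prep (10.8 FPKM with DEX and 3.65 FPKM with PBS), Dpp9 (15.1 FPKM with DEX and 5.90 FPKM with PBS) and Ada (4.55 FPKM with DEX and 1.48 FPKM with PBS) were higher, and with the shift set to 0 only 1 gene was. As deposited, 15.5% of all genes were higher and 7.71% lower. Once the shift was set to 0, 1163 of 13181 genes were higher and 1638 lower. Between cell types Fap was the 1 gene higher (8.11 FPKM in PDGFRα+ and 2.72 FPKM in CD137+) and 4 were lower, or 2 higher and 3 lower with the shift set to 0. Of 10 in the CD137+ table, 0 were apart, and Fap stood at 4.02 FPKM with DEX and 4.96 FPKM with PBS.

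Among 24 measured genes of other progenitor and stromal markers, 3 were higher and 7 lower in the own-table PDGFRα+ DEX library. Of all genes tested, 15.5% were higher and 7.71% lower. Fmo2, a monooxygenase gene, stood at 5.82 FPKM with DEX and 126 FPKM with PBS, and the beige adipocyte marker Slc36a2 at 2.20 FPKM with DEX and 19.3 FPKM with PBS. The proteoglycan gene Lum stood at 18.3 FPKM with DEX and 116 FPKM with PBS. Nt5e, which encodes CD73, stood at 9.20 FPKM with DEX and 57.5 FPKM with PBS. Between cell types 8 of 25 were higher and 5 lower in the PDGFRα+ DEX library, or 8 and 1 with the shift set to 0, and the same 4 genes were among those higher, with Lum at 144 FPKM in PDGFRα+ and 3.07 FPKM in CD137+. Of 23 in the CD137+ table, 0 were apart.

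These list results against PBS also depended on the DEX library. With the between-type PDGFRα+ DEX library set across tables, 0 genes of any of the 16 lists were apart from PBS. Only 0.169% of all 12456 genes were apart there. Of all genes, 4.66% were higher and 7.51% lower in the between-type CD137+ DEX library than in CD137+ PBS. With the between-type CD137+ DEX library, 2 of 9 PDGF genes were higher and 0 lower, with Pdgfa at 15.3 FPKM with DEX and 4.62 FPKM with PBS. Of 21 tumour necrosis factor receptor genes 4 were then higher and 2 lower, with Tnfrsf12a at 90.5 FPKM with DEX and 25.9 FPKM with PBS. Of 12 endoglin pathway genes 0 were higher and 1 lower, Tgfbr2 at 46.5 FPKM with DEX and 136 FPKM with PBS. Of 4 Ly6 relatives 3 were lower, with Ly6c1 at 43.5 FPKM with DEX and 314 FPKM with PBS. Of 24 other progenitor markers 3 were higher and 5 lower, with Fmo2 at 9.42 FPKM with DEX and 46.2 FPKM with PBS. Among 17 tetraspanin genes 1 was higher, among 10 peptidase genes 1 was lower, and among 20 genes of the GPI anchor 1 was higher.

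The genes most like Pdgfra over the 6 libraries, by the root mean square difference of centred log2(FPKM + 1), were Il11ra1 (0.08), Acsf2 (0.08), Tmem176b (0.08), Cadm3 (0.08) and Mocs1 (0.09), among 7488 genes at 10 FPKM or more in the highest library. Il11ra1, the interleukin-11 receptor gene, stood at 21.3 FPKM in the own-table PDGFRα+ DEX library and 61.1 FPKM in the between-type one, against 53.8 FPKM with PBS. CD137+ cells held 61.3 FPKM in the own-table DEX library and 29.9 FPKM in the between-type one, against 67.4 FPKM with PBS. Among the surface genes at that minimum, Cd34 came nearest to Pdgfra, at rank 1103 of that order, since its range was wider. Over the 4 libraries that list it, the genes most like Tnfrsf9 were Egflam (0.06), Vwa1 (0.07), Slc6a12 (0.08), Cidec (0.08) and Eya2 (0.08) of 13273 genes at 1 FPKM or more. Dpp4 was the nearest surface gene to Tnfrsf9, at rank 626. Libraries shared by all genes and the low level of Tnfrsf9 limit such orders to a description.

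Markers of other cell types and states stood apart in the same libraries, and their part in the results above was not tested. Beside these and the following marker counts, 15.5% of all genes were higher and 7.71% lower in the PDGFRα+ table. The shares were 0.471% and 0.569% in the CD137+ table, and 9.25% and 11.5% between cell types. Beside counts with the shift of the PDGFRα+ table set to 0, 1163 of 13181 genes were higher and 1638 lower. Of 16 listed adipocyte markers, 0 were higher and 12 lower in the own-table PDGFRα+ DEX library than with PBS, and their summed level was 233 FPKM with DEX and 1152 FPKM with PBS. Between cell types 11 of 16 were higher, with sums of 1273 FPKM in PDGFRα+ and 368 FPKM in CD137+. Adipoq, the adiponectin gene, stood at 1.44 FPKM with DEX and 14.7 FPKM with PBS in the PDGFRα+ table, and at 18.9 FPKM in PDGFRα+ and 0.149 FPKM in CD137+ in the between-type table. Of 17 in the CD137+ table, 0 were apart, with sums of 3154 FPKM with DEX and 4139 FPKM with PBS and Adipoq at 95.7 FPKM with DEX and 145 FPKM with PBS. Cfd, the adipsin gene, was listed at 0 in the own-table PDGFRα+ DEX and between-type CD137+ DEX libraries, and Cidea was not listed. Set across tables against CD137+ PBS, the between-type CD137+ DEX library had 16 of 16 adipocyte markers lower, beside 7.51% of all genes. In it 5 of 9 mural markers and 16 of 20 cell cycle genes were higher, beside 4.66% of all genes. The mural genes that were higher were Acta2, Tagln, Des, Cspg4 and Cnn1. Myh11, Notch3, Mcam and Abcc9 were within 2-fold, and Rgs5 was below the minimum. Of the mesothelial and epithelial list, 6 of 6 compared genes were higher: Krt7, Krt8, Krt18, Krt19, Epcam and Cdh1. Its genes Msln, Upk3b, Upk1b, Wt1, Lrrn4 and Bnc1 were not listed in the CD137+ table and so were not compared. There 0 of 10 endothelial and 0 of 3 leukocyte markers were apart.

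Mesothelial and epithelial markers summed to 637 FPKM in the own-table PDGFRα+ DEX library and 146 FPKM in the between-type one, against 135 FPKM with PBS, and 6 of 12 were higher and 2 lower in the PDGFRα+ table. Krt18, a keratin gene, stood there at 159.6 FPKM with DEX and 17.3 FPKM with PBS, while the mesothelial genes Msln (5.30 FPKM with DEX and 12.0 FPKM with PBS) and Wt1 (15.9 FPKM with DEX and 44.2 FPKM with PBS) were the 2 lower ones. In CD137+ cells the list summed to 8.01 FPKM in the own-table DEX library and 51.5 FPKM in the between-type one, against 12.6 FPKM with PBS, and Msln, Wt1 and 4 others were not listed in the CD137+ table. There 0 of 3 measured markers were higher and 1 lower, and 8 of 12 were higher between cell types. Mural markers summed to 3401 FPKM in the own-table PDGFRα+ DEX library and 1301 FPKM in the between-type one, against 1353 FPKM with PBS. In CD137+ cells they summed to 274 FPKM in the own-table DEX library and 1044 FPKM in the between-type one, against 277 FPKM with PBS. Acta2 stood at 692 FPKM and Tagln at 313 FPKM in the between-type CD137+ DEX library. In PDGFRα+ PBS they stood at 507 FPKM (Acta2) and 625 FPKM (Tagln), so these genes held most of those sums. Mural markers had 4 of 11 higher in the PDGFRα+ table, 5 higher and 1 lower of 11 between cell types, and 0 of 9 apart in the CD137+ table.

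Cell cycle genes were higher at 19 of 20 in the own-table PDGFRα+ DEX library than with PBS and lower at 20 of 20 in the PDGFRα+ than in the CD137+ DEX library. Mki67, a proliferation marker, stood at 12.5 FPKM with DEX and 3.19 FPKM with PBS in the PDGFRα+ table, and at 2.61 FPKM in PDGFRα+ and 20.3 FPKM in CD137+ between cell types. Of 20 in the CD137+ table, 0 were apart, with Mki67 at 12.6 FPKM with DEX and 7.99 FPKM with PBS. Endothelial markers summed to 18.5 to 40.1 FPKM over the libraries, the lowest in the own-table CD137+ DEX library, where 3 of 10 were lower than with PBS. Pecam1, an endothelial adhesion gene, stood there at 1.78 FPKM with DEX and 5.12 FPKM with PBS, and Cdh5 at 1.89 FPKM with DEX and 5.07 FPKM with PBS. In the PDGFRα+ table Pecam1 stood at 0.672 FPKM with DEX and 3.30 FPKM with PBS, among 1 higher and 2 lower of 9, or 1 higher and 5 lower with the shift set to 0, and 0 of 10 were apart between cell types. Leukocyte markers summed to 8.81 to 14.1 FPKM. Their defining gene Ptprc, the gene of CD45, stood at 0.505 FPKM with DEX and was listed at 0 with PBS in the PDGFRα+ table, and it was not listed in the other tables. Cd68 was the 1 leukocyte marker of 3 apart in the PDGFRα+ table (5.44 FPKM with DEX and 1.36 FPKM with PBS), and 0 of 3 were apart in each other table.

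**Figure D5:**
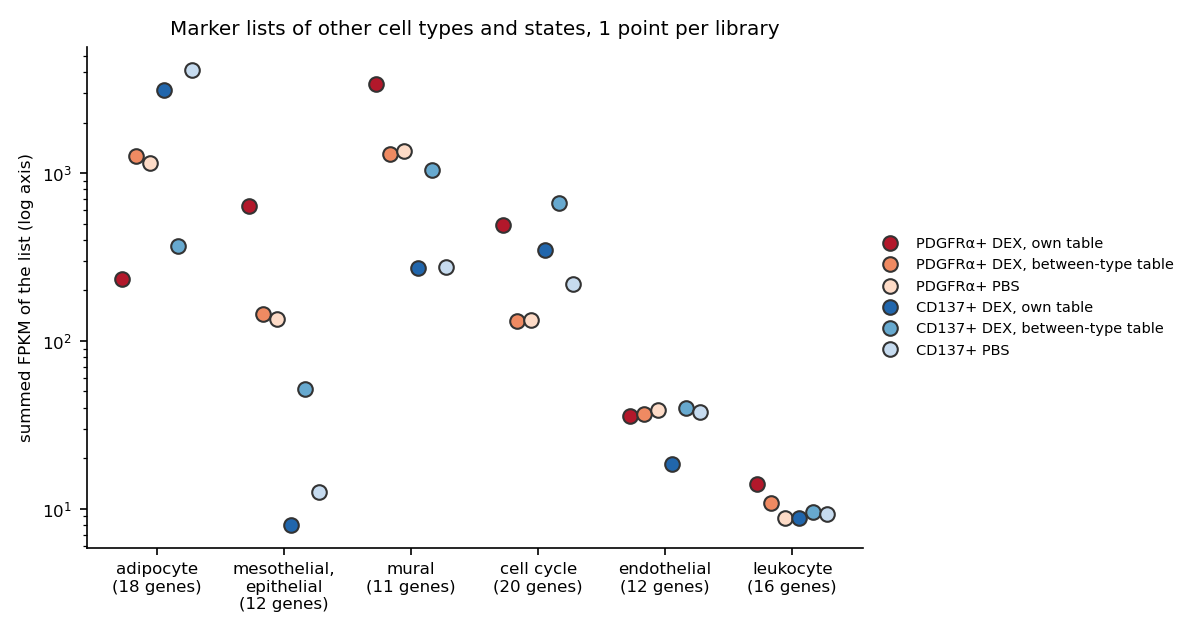
Summed FPKM (log axis) of marker lists of other cell types and of cell cycle genes, 1 point per library, PDGFRα+ libraries in reds and CD137+ libraries in blues. Adipocyte sums are lowest in the own-table PDGFRα+ DEX (233 FPKM) and between-type CD137+ DEX (368 FPKM) libraries, and cell cycle sums are highest there (494 and 666 FPKM).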

How the data were processed

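RNA was extracted with Trizol from 4 mouse samples, 1 per group, and made into TruSeq libraries, per the labels' protocols. Per the submitters' processing notes, the tools were Cufflinks and Cuffdiff and the build was mm10. The sources used here give no aligner, annotation or tool version. The authors deposited 3 tables with 2 FPKM columns each, per the file headers, with a log2 ratio of the columns and a p-value and q-value for each gene. The deposited log2 ratio differed from the ratio recomputed here by at most 3.92e-05, and is a placeholder where a library is listed at 0, in 55 to 195 genes of a table. A 0 may be a failed estimate. The lowest higher value of any listed gene was 0.386 FPKM, so genes low in both libraries are not listed. All 6 FPKM columns were matched to a label by name, and 0 columns were left unmatched.

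Low FPKM values came in whole steps for at most 52.5% of genes with 1 transcript (within 0.1 of a step, where an even spread gives 20%), so reads were not recovered, depth is unknown and no counting interval is given. FPKM scales each library to its total, so changes of abundant genes move the rest.

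Differences are of log2(FPKM + 1), the DEX library minus PBS and PDGFRα+ minus CD137+. A gene counted as measured if its higher library held 1 FPKM, and as apart at 2-fold. For values set across tables, the median difference was set to 0 over genes that both libraries held at 1 FPKM. The 10 genes, the 16 lists and the settings were chosen with earlier results of these data known. Kdr, Mcam, Csf1r, Cd81 and Cd40 each stand in 2 lists. Named genes were the 10, up to 4 genes of a list per comparison past 2-fold by size, further genes fixed by name, and the 5 most like Pdgfra and the 5 most like Tnfrsf9. The ratios were chosen after their values had been seen in part. Other pseudocounts, minima, thresholds, scalings and DEX libraries were tried, and the lists with the between-type DEX libraries were added after the data were seen. Gene positions come from GENCODE M21 (GRCm38) and promoters from RefSeq (GRCm38.p6). The scripts were tested on simulated data and used Python 3.11.15, numpy 2.4.6, pandas 2.3.3 and matplotlib 3.10.9.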

Additional observations from a re-analysis of the deposited data

Results flagged for a closer look

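For Ly6a and Pdgfrb the difference between the own-table DEX library and PBS had opposite signs in the 2 cell types, each within 2-fold. Dpp4 and Eng were also flagged, but their CD137+ values were near level. None of this was tested, since each group is 1 library. The difference in PDGFRα+ cells minus that in CD137+ cells was -1.52 on the log2(FPKM + 1) scale for Dpp4 (-1.51 in PDGFRα+ and 0.02 in CD137+ cells). Dpp4 was below 1 FPKM in both CD137+ libraries, and its CD137+ difference turned to -0.04 with the median difference set to 0, so no opposite direction is read from Dpp4. For Ly6a it was -1.05 (-0.65 in PDGFRα+ and 0.41 in CD137+ cells). For Pdgfrb it was 0.69 (0.54 in PDGFRα+ and -0.15 in CD137+ cells). For Eng it was 0.59 (0.59 in PDGFRα+ cells), but its CD137+ libraries were level at 13.76 FPKM, so no opposite direction is read from it. With the between-type DEX libraries set across tables, Ly6a stood at 0.19 in PDGFRα+ and -1.75 in CD137+ cells, so both signs turned. Dpp4 then stood at -0.43 in PDGFRα+ and -0.10 in CD137+ cells, and Pdgfrb at 0.17 in PDGFRα+ and -0.15 in CD137+ cells.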

How the results depend on the processing

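No paired analysis was possible because each cell type has 1 PBS library, and what the numbers in the sheet titles stand for is not given. Under the settings that kept each table's own libraries, the sign of the surface genes' differences was kept in 79 of 81 alternative values in CD137+ cells, 90 of 90 in PDGFRα+ cells and 88 of 90 between cell types. Dpp4 in CD137+ cells and Ly6a between cell types turned under both rescalings. No CD137+ value changed its side of 2-fold, while 7 newly passed the threshold and 8 no longer did in PDGFRα+ cells, and 3 and 6 did so between cell types. In PDGFRα+ cells (2 surface genes higher, 3 lower), 1 was higher with a pseudocount of 5 FPKM, at 4-fold, with the median difference set to 0 or after upper quartile scaling. There 5 were lower at 1.5-fold and 1 at 4-fold. Between cell types (4 higher, 0 lower), 2 were higher with a pseudocount of 5 FPKM, a minimum of 10 FPKM or a 4-fold threshold, and 3 were lower at 1.5-fold. Exchanging DEX libraries between tables turned more signs. In CD137+ cells 1 was then higher and 3 lower (0 and 0 before), and 4 of 9 signs turned: Ly6a (-1.75), Dpp4 (-0.10), Thy1 (0.19) and Eng (0.49). In PDGFRα+ cells 0 were higher and 0 lower, and 7 of 10 turned: Tnfrsf9 (0.14), Pdgfra (0.057), Cd34 (0.26), Ly6a (0.19), Cd9 (-0.11), Thy1 (0.05) and Eng (-0.11). Between cell types 2 genes were higher after each of the 3 exchanges, but not the same 2. They were Tnfrsf9 and Cd24a with the own-table PDGFRα+ library, Cd24a and Dpp4 with the own-table CD137+ library, and Cd24a and Cd9 with both. With the own-table PDGFRα+ library 1 was lower, and 5 of 10 turned: Pdgfra (-0.20), Cd34 (-0.11), Cd24a (1.59), Cd9 (0.30) and Eng (0.18). With the own-table CD137+ library 1 was lower, and 4 of 9 turned: Cd24a (1.37), Cd9 (0.17), Thy1 (0.26) and Eng (0.30). With both, 3 were lower, and 6 of 9 turned: Pdgfra (-1.48), Cd34 (-2.53), Cd24a (3.54), Dpp4 (-0.044), Cd9 (1.01) and Eng (0.71). The cause of these turns was not tested.

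Counts over all genes moved by more than 1.5 times as follows. In CD137+ cells (58 higher, 70 lower) they were 178 and 197 with a pseudocount of 0.1 FPKM, 30 and 16 with 5 FPKM, 36 and 19 at a minimum of 10 FPKM, 370 and 326 at 1.5-fold, 14 and 5 at 4-fold, 204 and 219 by the authors' deposited log2 ratio, and 579 and 933 with the exchanged library. In PDGFRα+ cells (2049 higher, 1016 lower) they were 858 and 480 with 5 FPKM, 1232 and 580 at a minimum of 10 FPKM, 4159 and 2074 at 1.5-fold, 273 and 253 at 4-fold, 1183 and 1618 after upper quartile scaling, and 7 and 14 exchanged. Between cell types (1195 higher, 1481 lower) they were 556 and 666 with 5 FPKM, 606 and 975 at a minimum of 10 FPKM, 2230 and 3515 at 1.5-fold and 352 and 219 at 4-fold. There 871 were lower after upper quartile scaling. With the own-table PDGFRα+ library 689 were higher and 184 lower, with the own-table CD137+ library 646 were lower, and with both 938 were lower. Pearson's correlation shared 1 of 5 genes most like Pdgfra and 0 of 5 most like Tnfrsf9. Unknown depth and single libraries limit every value, most of all Tnfrsf9 and Dpp4.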
